A study of Arabidopsis thaliana with 9 samples.

Results

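ANT, AIL5, AIL6, DRNL, FIL, YAB3, KAN1, ETT, AS1 and AS2 are transcription factor genes that act when a flower or floral organ starts to form on the flank of the Arabidopsis thaliana shoot tip. These 10 genes were chosen by locus identifier, and 9 of them were measured among the 25760 genes of the series. DRNL (AT1G24590), which marks the founder cells of lateral organs, is not among those 25760 genes. Total RNA of tissue labelled inflorescence meristem had been sequenced in 3 genotypes, with 3 libraries of each. They were col-0, the wild type; csld5, its mutant; and csld5 plants with pATML1::GFP+CSLD5, which puts CSLD5, a cellulose synthase-like gene, under the ATML1 promoter of the epidermis and is called complemented here. The labels do not give the age of the plants, the number of plants in a library, or whether the complemented plants came from 1 transgenic line. No label says whether replicate libraries had separate plant sources, so the p-values measure only the spread between these libraries.

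An organ primordium forms where auxin accumulates. There the auxin response factor MP turns on ANT, AIL6, FIL and LFY, and the ANT family keeps the young organ growing. As it grows out, the primordium splits into an adaxial side, which faces the meristem, and an abaxial side, which faces away. FIL, YAB3, KAN1 and ETT act on the abaxial side. AS1 and AS2 form a complex on the adaxial side that keeps the meristem's KNOX genes and ETT in check, beside the HD-ZIP III genes PHB, PHV and REV.

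Transcript levels are given as CPM, read counts scaled to a common library size, after TMM scaling, and fold changes as log2 values with their standard error (SE), from counts of 3 libraries against 3. A gene is called when its Benjamini-Hochberg adjusted p over all 22671 tested genes was below 0.05 in edgeR's quasi-likelihood test. Library totals ranged from 35543318 to 45679471 counts. CSLD5 itself lay at 126 to 135 CPM in col-0, 26.8 to 28.1 CPM in csld5 and 856 to 1013 CPM in complemented libraries. The mutant was lowest, at 20.8% of the col-0 mean, though its label names the genotype and no transcript level. The labels do not say how complemented libraries should stand against col-0, and their mean was 714% of the col-0 mean. Reads of the transgene may be counted at this gene. The meristem gene STM was present at 45.9 to 61.0 CPM and WUS at 13.6 to 29.3 CPM, but CLV3, a defining gene of the stem cells, had 0 to 4 reads per library and 0 in all 3 csld5 libraries. Genes of developing flowers were abundant (AP1, AP3, PI, AG and SEP3 together 893 to 1172 CPM), and pollen and photosynthesis genes were present, so the libraries hold RNA of more than meristem cells. In such bulk samples, fewer cells of a type and less RNA per cell cannot be told apart.

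FIL, YAB3, AS1 and ETT have the following upstream sequences, shown because the first 3 of them fell and ETT rose in csld5. Each is the stretch of 250 bases before the annotated start, read 5′ to 3′ on the gene's strand from the RefSeq TAIR10.1 genome, with no transcribed base of the gene. Capitals mark an auxin response element, TGTCTC on either strand, the sequence that auxin response factors such as MP and ETT bind.
FIL, chr2:18630780-18631029, minus strand: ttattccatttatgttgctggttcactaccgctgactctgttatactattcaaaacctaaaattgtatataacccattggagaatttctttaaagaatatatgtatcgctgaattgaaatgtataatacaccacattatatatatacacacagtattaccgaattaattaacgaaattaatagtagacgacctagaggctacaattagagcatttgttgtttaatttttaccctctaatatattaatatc
YAB3, chr4:75577-75826, minus strand: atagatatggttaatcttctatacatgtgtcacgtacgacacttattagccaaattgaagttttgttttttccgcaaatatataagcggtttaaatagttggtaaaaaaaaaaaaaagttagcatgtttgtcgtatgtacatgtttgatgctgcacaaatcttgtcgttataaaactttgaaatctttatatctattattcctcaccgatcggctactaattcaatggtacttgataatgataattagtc
AS1, chr2:15783481-15783730, minus strand: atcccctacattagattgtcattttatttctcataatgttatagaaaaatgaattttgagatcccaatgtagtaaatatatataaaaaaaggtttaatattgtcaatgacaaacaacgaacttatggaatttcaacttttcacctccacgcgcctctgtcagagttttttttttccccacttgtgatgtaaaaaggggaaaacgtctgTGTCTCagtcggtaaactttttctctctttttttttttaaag
ETT, chr2:14328979-14329228, minus strand: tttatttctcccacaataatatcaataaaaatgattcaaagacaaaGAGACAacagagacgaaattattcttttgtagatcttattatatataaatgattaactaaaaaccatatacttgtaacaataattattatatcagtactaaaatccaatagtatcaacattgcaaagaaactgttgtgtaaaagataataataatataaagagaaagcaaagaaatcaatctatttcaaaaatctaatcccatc
TGTCTC was found in the windows of AS1 (first base at -42 from the start) and ETT (first base at -204, on the reverse strand), and on either strand in 10.9% of all 27443 promoter windows of this length. A second form of the element, TGTCGG, was found in the windows of AIL6 (-212) and AIL5 (-92, on the reverse strand), and in 4.16% of all windows. The G-box CACGTG was found in none of the windows searched, which were those of DRNL and of the measured genes other than ANT, and in 6.49% of all. These 3 motifs share no bases in the windows shown. A match is a string of letters and not a binding site, and its lack in the windows of FIL and YAB3 says nothing of elements farther away.

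In the wild type the 9 genes spanned a wide range of abundance. By the authors' deposited TPM, a measure per transcript length, AS1 stood highest at 90.5 ± 3.96 (mean ± SD, n = 3), followed by ANT at 59.9 ± 3.57 and FIL at 57.3 ± 2.54, whose libraries overlapped. ETT (37.6 ± 1.70 TPM) and YAB3 (32.2 ± 1.45 TPM) came next, each apart from its neighbours in the order. KAN1 (7.98 ± 0.839 TPM) and AS2 (7.22 ± 0.176 TPM) overlapped, and the growth genes AIL5 (5.79 ± 0.589 TPM) and AIL6 (3.92 ± 0.153 TPM) were the lowest. In csld5 the order changed above YAB3: ETT had the second highest mean TPM (45.5 ± 4.93), ahead of ANT (40.8 ± 2.78) and FIL (35.4 ± 3.49), with overlap between ETT and ANT and between ANT and FIL. In complemented libraries FIL (57.1 ± 2.86 TPM), ANT (53.5 ± 2.602 TPM) and ETT (36.7 ± 1.59 TPM) stood in that order with no overlap.

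**Figure D1:**
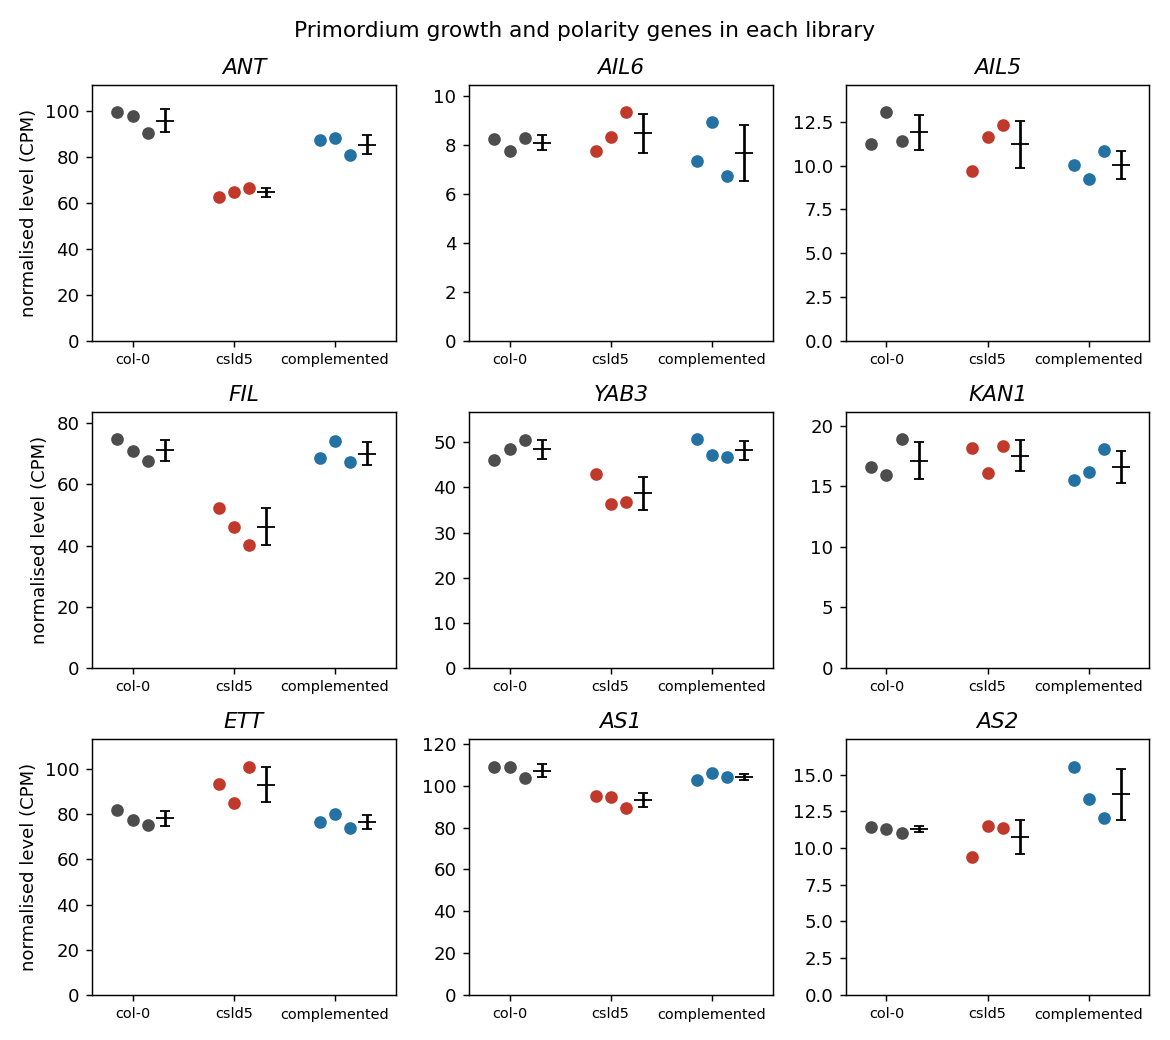
Normalised level (CPM, vertical axis from 0) of 9 primordium growth and organ polarity genes in each of 3 libraries per genotype (points, replicates 1 to 3 from left to right), with mean ± SD beside them. The csld5 points of ANT, FIL, YAB3 and AS1 lie below all others, those of ETT lie above, and those of AIL5, AIL6 and KAN1 overlap the col-0 points.

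In csld5 against col-0, the organ growth gene ANT and the abaxial YABBY genes FIL and YAB3 fell, AS1 fell by a small amount, and ETT rose. AIL5, AIL6, KAN1 and AS2 were not called. Of the 9 genes, 4 were called lower and 1 higher, while 20.4% of all tested genes were called lower and 21.1% higher. With 41.5% of all genes called in either direction, a count of 5 in 9 is no result about these genes as a set, and the values of each gene follow. Libraries of the 2 genotypes did not overlap for 25.2% of all genes in the higher and 25.8% in the lower direction. The members' median log2 fold change was -0.09, beside -0.02 over all tested genes.

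ANT (AT4G37750, chromosome 4, 17739514 to 17742407, plus strand), an AP2-domain factor that promotes cell division in young organs, had 99.5, 98.0 and 90.3 CPM in col-0 replicates 1 to 3, 62.6, 64.8 and 66.4 CPM in csld5, and 87.2, 88.4 and 80.8 CPM in complemented libraries. The 3 genotypes did not overlap: csld5 was lowest and complemented lay between. The csld5 mean was 67.3% of the col-0 mean, a log2 fold change of -0.57 ± 0.06 (adjusted p = 1.2e-05, edgeR). Its relatives AIL6 and AIL5, which act with ANT in organ initiation and growth, did not show such a drop. AIL6 (AT5G10510, chromosome 5, 3315401 to 3320323, plus strand) had 8.26, 7.73 and 8.27 CPM in col-0, 7.74, 8.34 and 9.33 CPM in csld5, and 7.35, 8.96 and 6.72 CPM in complemented libraries. AIL5 (AT5G57390, chromosome 5, 23252989 to 23256703, minus strand) had 11.2, 13.1 and 11.4 CPM in col-0, 9.72, 11.6 and 12.3 CPM in csld5, and 10.05, 9.27 and 10.9 CPM in complemented libraries. For both genes the col-0 and csld5 libraries overlapped, with log2 fold changes of 0.07 ± 0.13 for AIL6 and -0.09 ± 0.11 for AIL5. Both had far fewer reads than ANT, and their SE is wider.

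FIL (AT2G45190, AFO in RefSeq, chromosome 2, 18628252 to 18630779, minus strand), a YABBY factor of the abaxial side that promotes the growth of the organ blade, had 74.7, 71.1 and 67.7 CPM in col-0, 52.5, 45.99 and 40.1 CPM in csld5, and 68.7, 74.3 and 67.5 CPM in complemented libraries. All csld5 libraries lay below all others, and the other genotypes overlapped. The csld5 mean was 64.9% of col-0, a log2 fold change of -0.62 ± 0.08 (adjusted p = 8.1e-05, edgeR), the largest fall among the 9 genes. YAB3 (AT4G00180, chromosome 4, 72545 to 75576, minus strand), the paralog that acts redundantly with FIL, had 46.2, 48.5 and 50.6 CPM in col-0, 43.0, 36.4 and 36.7 CPM in csld5, and 50.7, 47.3 and 46.9 CPM in complemented libraries. It followed the same order of genotypes with a smaller step: the csld5 mean was 79.9% of col-0, and the log2 fold change was -0.32 ± 0.07 (adjusted p = 0.0029, edgeR).

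KAN1 and ETT, which act with each other on the abaxial side, differed from the YABBY pair. KAN1 (AT5G16560, chromosome 5, 5406863 to 5411766, minus strand), a GARP-family repressor of adaxial fate, had 16.5, 15.9 and 18.8 CPM in col-0, 18.2, 16.1 and 18.3 CPM in csld5, and 15.5, 16.1 and 18.05 CPM in complemented libraries, and the 3 genotypes overlapped. Its log2 fold change in csld5 was 0.04 ± 0.09, with a sign that turned when libraries were scaled by their totals (-0.05). ETT (AT2G33860, chromosome 2, 14325206 to 14328978, minus strand), an auxin response factor also called ARF3, had 81.7, 77.5 and 75.2 CPM in col-0, 93.2, 85.2 and 101 CPM in csld5, and 76.4, 79.9 and 73.8 CPM in complemented libraries. All csld5 libraries lay above all others, at 119% of the col-0 mean, with a log2 fold change of 0.25 ± 0.07 (adjusted p = 0.0085, edgeR). The call of ETT ended when the trend of each library with exon GC content and exon length was removed (-0.01), and when libraries were scaled by their totals (0.17).

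AS1 (AT2G37630, chromosome 2, 15781232 to 15783480, minus strand), a MYB factor, had 109, 109 and 104 CPM in col-0, 95.2, 94.6 and 89.2 CPM in csld5, and 103, 106 and 104 CPM in complemented libraries. The csld5 libraries lay below all others, at 86.8% of the col-0 mean, and the log2 fold change was -0.20 ± 0.05 (adjusted p = 0.0070, edgeR). AS2 (AT1G65620, chromosome 1, 24398143 to 24400989, plus strand), the LOB-domain partner of AS1, had 11.5, 11.3 and 11.1 CPM in col-0, 9.41, 11.5 and 11.4 CPM in csld5, and 15.5, 13.4 and 12.04 CPM in complemented libraries. Its col-0 and csld5 libraries overlapped (-0.07 ± 0.11), while the complemented libraries were the highest. AS1 shares 330 exon bases with a gene on the other strand, the actin gene ACT1, which rose by 0.63 ± 0.06 in csld5, from 58.4 to 90.5 CPM. The deposited counts are not stated to use strand, so reads in that stretch cannot be assigned, and their part in the value of AS1 was not tested. AIL6 and KAN1 also overlap genes on the other strand (RBK1 and AT5G16550), neither of which was called in this comparison. RBK1 was called lower in complemented against csld5 (-0.55 ± 0.18). KAN1 also overlaps AT5G02555, which is not among the genes of the series.

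The second comparison, complemented against csld5, asks how these genes stand once the transgene is present. Both comparisons use the same csld5 libraries, so their values are not independent. ANT was higher in complemented than in csld5 libraries by 0.40 ± 0.06 (adjusted p = 0.00018), FIL by 0.60 ± 0.08 (adjusted p = 0.00012) and YAB3 by 0.32 ± 0.07 (adjusted p = 0.0033), each by edgeR. AS1 was higher by 0.16 ± 0.05 (adjusted p = 0.023, edgeR) and AS2 by 0.34 ± 0.11 (adjusted p = 0.025, edgeR), and ETT was lower by 0.28 ± 0.07 (-0.28, adjusted p = 0.0047, edgeR). AIL6 (-0.15 ± 0.13), AIL5 (-0.16 ± 0.11) and KAN1 (-0.08 ± 0.09) were not called. In all 5 of 9 genes were called higher and 1 lower, while 40.9% of all tested genes were called, 19.8% higher and 21.1% lower. Libraries did not overlap for 25.9% of all genes in the higher and 25.7% in the lower direction. The calls of AS1 and AS2 did not hold whichever library was left out, though the fold changes kept their sign throughout. AS1 was no longer called without csld5 replicate 3 (0.13), complemented replicate 2 (0.15) or complemented replicate 3 (0.16), and AS2 not without csld5 replicate 1 (0.25), complemented replicate 1 (0.24) or complemented replicate 2 (0.36). AS2 was also not called by limma on log2(TPM + 1) (0.28), nor with a pseudocount of 0.1 (0.31).

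In complemented against col-0, 0 of the 9 genes were called by edgeR, beside 1.53% of all genes called, 0.948% higher and 0.578% lower. DESeq2 and limma on TPM also called 0. An unadjusted p below 0.05 by edgeR, a looser threshold, was met by 3 of the 9. The share of all genes at that threshold is not given here. The 3 genes were ANT (-0.17 ± 0.06), AIL5 (-0.24 ± 0.11) and AS2 (0.27 ± 0.11), and they were also the ones whose complemented and col-0 libraries did not overlap, ANT and AIL5 lower and AS2 higher. Libraries did not overlap in this way for 10.2% of all genes in the lower and 9.37% in the higher direction. ANT stood at 89.1% of the col-0 mean in complemented libraries, FIL at 98.6%, YAB3 at 99.6%, AS1 at 97.3% and ETT at 98.2%.

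Fold changes across the 22580 genes with an exon model followed GC content and length in csld5 against col-0 (Spearman's rho = 0.40 and 0.37) and, with the other sign, in complemented against csld5 (-0.46 and -0.45). This is a description across genes, which are not independent replicates. Because the trend ran with genotype, its removal also takes away any change by genotype that follows GC content or length. The source of the trend was not tested, so a call that ends when it is removed is not shown to be false. The trend was strongest in csld5 replicate 3, where GC content and length took up an R squared of 0.339 of the library's deviation, against 0.0254 to 0.215 in the others. Among the 9 genes, ETT was near the upper end of both measures (43.6% GC, percentile 85.9; 2875 exon bases, percentile 86.4), and AS2 and KAN1 had low GC content (36.5% and 38.1%) with long exons. With the trend removed, ANT stood at -0.68, FIL at -0.51, YAB3 at -0.36 and AS1 at -0.37 in csld5 against col-0, and all 4 stayed called. AIL5 stood at -0.25, AIL6 at 0.02, KAN1 at 0.09 and AS2 at 0.05, none of them called. In complemented against csld5 the corrected values were 0.50 for ANT, 0.45 for FIL, 0.34 for YAB3 and 0.33 for AS1, all called, while ETT (-0.01) and AS2 (0.17) were no longer called. After the correction 15.4% of all tested genes were called higher and 17.7% lower in csld5 against col-0. The shares were 11.4% and 15.2% in complemented against csld5, and 1.04% and 0.966% in complemented against col-0. The 4 falls of ANT, FIL, YAB3 and AS1 were also called without csld5 replicate 3 and without each other library, with log2 fold changes from -0.61 to -0.54 for ANT, from -0.72 to -0.53 for FIL, from -0.39 to -0.28 for YAB3 and from -0.22 to -0.17 for AS1.

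**Figure D2:**
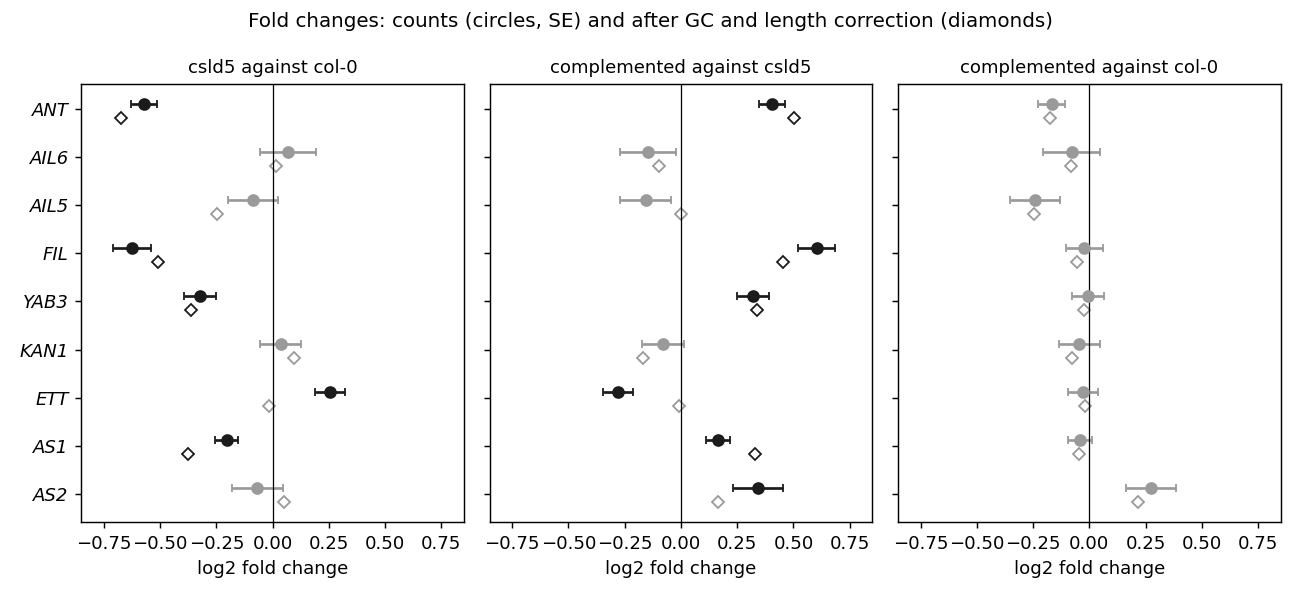
Log2 fold change (horizontal axis) of 9 genes in 3 comparisons of 3 libraries against 3, from counts (circles, bars are SE) and after removal of each library's trend with exon GC content and length (diamonds). Dark symbols passed an adjusted p of 0.05 and grey ones did not, and the circles of ETT in the first and second comparison have diamonds near 0, at -0.01 each.

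Ratios of related genes within a library do not depend on the scaling of libraries. The log2 ratio of ANT to AIL6 counts was 3.57 ± 0.11 in col-0, 2.93 ± 0.09 in csld5 and 3.48 ± 0.16 in complemented libraries (mean ± SD, n = 3, not corrected for length). It was lower in every csld5 library than in every other library, by 0.63 on average (-0.63) against col-0. An exact permutation test of the F statistic over all assignments of the 9 libraries to genotypes gave p = 0.018, and 0.058 after Benjamini-Hochberg adjustment over the 7 pairs compared, which misses 0.05. The ratio of ANT to AIL5 was lower in csld5 than in col-0 by 0.48 on average (-0.48; exact permutation p = 0.025, adjusted 0.058), and that of FIL to KAN1 by 0.67 (-0.67; exact permutation p = 0.025, adjusted 0.058). The log2 ratio of FIL to YAB3 was 0.55 ± 0.14 in col-0, 0.25 ± 0.11 in csld5 and 0.54 ± 0.11 in complemented libraries, and every csld5 library lay below every other (exact permutation p = 0.039, adjusted 0.069, which misses 0.05). After the GC and length correction the falls of FIL (-0.51) and YAB3 (-0.36) lay closer together than before it (-0.62 and -0.32). AIL6 to AIL5, AS1 to AS2 and KAN1 to ETT had adjusted p-values of 0.62, 0.22 and 0.22 by the same exact permutation test. The ratio of KAN1 to ETT changed by -0.22 in csld5 against col-0, with every csld5 library below every other. After the GC and length correction that change was 0.11. Between 2 genotypes, 3 libraries against 3 cannot give a p below 0.10, and over 3 genotypes the smallest p that the test can give is 0.0036.

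**Figure D3:**
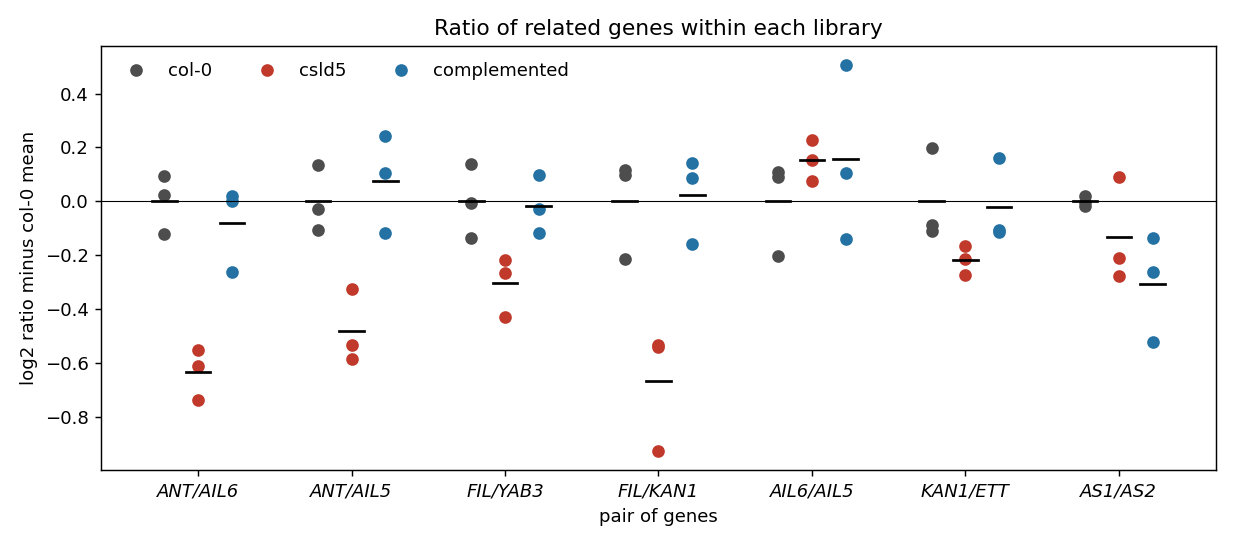
Log2 ratio of counts for 7 pairs of related genes in each library, minus the mean of col-0 (vertical axis), with the mean of each genotype as a bar. The csld5 points of ANT/AIL6, ANT/AIL5, FIL/YAB3, FIL/KAN1 and KAN1/ETT lie below all others of their pair, and no pair passed an adjusted p of 0.05.

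Likeness of expression was measured as the root mean square distance between log2 CPM profiles over the 9 libraries, each centred on its mean. The nearest of the 9 genes to FIL was ANT, and the nearest to ANT was FIL, at a distance of 0.14. Even so, FIL ranked 1128 among all genes by distance from ANT, and ANT ranked 946 from FIL. The genes closest to ANT were AT1G31310 (0.027) and AT4G01730 (0.042), and those closest to FIL were AT2G19750 (0.044) and AT2G04410 (0.047). Closest to YAB3 were TET10 (0.034) and AT3G62190 (0.035), to AS1 AT1G74050 (0.022) and AT2G17360 (0.023), and to ETT AT5G63990 (0.031) and SC35 (0.034). For the other members, the closest genes were AT3G09690 (0.062) and PDE340 (0.064) for AIL6, TPS11 (0.045) and AT5G66910 (0.047) for AIL5, FUM2 (0.032) and AT5G49760 (0.038) for KAN1, and KCS7 (0.062) and ERO1 (0.073) for AS2.

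Relatives and partners of these genes were taken from 10 lists with 40 genes, of which 33 could be tested. In csld5 against col-0, 9 of the 33 were called higher and 8 lower, with a median log2 fold change of -0.03. These counts are near the 21.1% and 20.4% of all tested genes. With the GC content and length trend removed, 3 were called higher and 9 lower, beside 15.4% and 17.7% of all genes. When each library was left out in turn, 8 of the 17 calls held throughout.

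Of the other ANT relatives, AIL7, which acts with ANT and AIL6, fell from 9.60, 10.9 and 9.96 CPM in col-0 to 6.43, 6.69 and 9.04 CPM in csld5 and stood at 9.74, 10.8 and 10.13 CPM in complemented libraries. AIL7 changed by -0.46 ± 0.13 on the log2 scale in csld5 (-0.57 after the GC and length correction), a call that ended without col-0 replicate 2 (-0.40) or csld5 replicate 2 (-0.39), and 0.47 ± 0.13 in complemented against csld5. AIL1 had 2 to 10 reads per library, the root and embryo genes PLT2 and BBM 0 to 8 and 0 to 6, and none of the 3 was tested. DRN, the closest relative of DRNL, had 0 to 8 reads per library and LEP 0 to 4, also too few to test. PLT1 and PUCHI are not among the genes of the series.

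Among the other YABBY genes, CRC, which acts in carpels and nectaries, fell by 0.22 ± 0.08 in csld5 (-0.22; -0.26 after the correction) and was higher by 0.39 ± 0.08 in complemented against csld5. YAB2, a leaf and floral organ gene, fell by 0.26 ± 0.09 (-0.26), but stood at 0 to 2 decimals after the correction and lost its call. Both calls in csld5 ended when certain libraries were left out, with the sign kept. CRC was not called without col-0 replicate 3 (-0.15) or csld5 replicate 3 (-0.17). YAB2 was not called without col-0 replicate 3 (-0.19), csld5 replicate 2 (-0.27) or csld5 replicate 3 (-0.16). In complemented against csld5 YAB2 was higher by 0.29 ± 0.09, a call that ended after the correction (-0.03) and without csld5 replicate 3 (0.20) or complemented replicate 3 (0.26). YAB5 (-0.09 ± 0.15) and INO, an ovule gene (-0.22 ± 0.12), were not called in csld5. In complemented against csld5 YAB5 was not called (-0.03 ± 0.15), but after the correction it was called lower (-0.40). Of the KANADI relatives of KAN1, KAN2, which shares its role on the abaxial side, fell from 21.8, 22.1 and 21.9 CPM in col-0 to 16.6, 15.4 and 14.3 CPM in csld5, by 0.51 ± 0.08 (-0.51; -0.41 after the correction). It stood at 16.3, 19.3 and 18.8 CPM in complemented libraries, higher than in csld5 by 0.23 ± 0.08, a call that ended after the correction (0.08) and without any 1 library other than csld5 or complemented replicate 1 (0.18 to 0.30 over all that were left out). KAN3 (-0.26 ± 0.12) and KAN4, an ovule integument gene (-0.42 ± 0.16), were not called.

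On the adaxial side, the HD-ZIP III genes rose in csld5: PHV by 0.62 ± 0.07, REV by 0.31 ± 0.06 and PHB by 0.30 ± 0.08. They were lower in complemented than in csld5 libraries (PHV -0.60 ± 0.07, PHB -0.43 ± 0.08, REV -0.38 ± 0.06). After the correction for GC content and length, PHV stood at 0.25 and was still called in csld5, while REV (0.09) and PHB (-0.10) were not. The corrected values of PHV (-0.25) and REV (-0.15) in complemented against csld5 stayed called, and that of PHB (-0.04) did not. The other auxin response factors behaved like ETT. ARF4, which acts redundantly with ETT, rose by 0.25 ± 0.07, ARF2 by 0.20 ± 0.06 and MP by 0.20 ± 0.06, and none of the 3 was called after the correction (0.06, -0.10 and -0.01). ARF2 was also not called without col-0 replicate 1 (0.19), nor MP without col-0 replicate 1 (0.18) or csld5 replicate 3 (0.14). They were lower in complemented than in csld5 libraries (ARF4 -0.32 ± 0.07, ARF2 -0.27 ± 0.06, MP -0.17 ± 0.06), again with no call after the correction (-0.12, 0.04 and 0.04), and MP lost its call without any 1 library other than csld5 replicate 1 or 2 (-0.20 to -0.10 over all that were left out). The exons of these long genes lie at length percentiles from 91.1 (ARF4) to 95.1 (ARF2). AGO7, RDR6, SGS3 and DCL4, which make the small RNAs that cut ETT and ARF4 transcripts, were not called in csld5 (0.03 to 0.19), though RDR6 was called lower after the correction (-0.16). In complemented against csld5 SGS3 (-0.21 ± 0.06) and DCL4 (-0.26 ± 0.08) were called lower, but not after the correction (0.03 and -0.05). Each also lost that call without 1 of 2 libraries, SGS3 without csld5 replicate 3 (-0.16) or complemented replicate 2 (-0.18) and DCL4 without csld5 replicate 3 (-0.21) or complemented replicate 1 (-0.20).

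The KNOX genes that AS1 and AS2 repress in primordia did not move as a group. KNAT1 rose by 0.16 ± 0.06 and KNAT2 fell by 0.28 ± 0.10 (-0.28) in csld5, with log2 fold changes of 0.12 to 0.19 and -0.31 to -0.24 over all libraries left out. The call of KNAT1 held only without col-0 replicate 3, csld5 replicate 1 or csld5 replicate 2, that of KNAT2 only without col-0 replicate 3 or complemented replicate 1 or 2, and KNAT6 was not called (-0.17 ± 0.07). After the GC and length correction KNAT1 stayed called (0.22) and KNAT2 did not (-0.23). KNAT1 was lower in complemented than in csld5 libraries (-0.19 ± 0.06; -0.28 after the correction, still called), but not called without csld5 replicate 3 (-0.15) or complemented replicate 2 (-0.18) or 3 (-0.19). Of the co-repressors that bind YABBY factors, LUH rose by 0.39 ± 0.06 in csld5 (0.24 after the correction, still called) and SEU by 0.23 ± 0.07 (-0.01, not called), and LUG was not called (0.17 ± 0.06). SEU also lost its call without csld5 replicate 3 or any 1 col-0 library, at 0.14 to 0.28 over all that were left out. Lower in complemented than in csld5 libraries were LUH (-0.26 ± 0.06), LUG (-0.24 ± 0.06) and SEU (-0.23 ± 0.07), with no call after the correction (-0.11, 0 to 2 decimals, and 0.01). SEU lost that call without csld5 replicate 3 (-0.14) or complemented replicate 1 (-0.21) or 2 (-0.20).

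Among 9 genes of organ initiation and growth, 3 were called lower and 0 higher in csld5, beside 20.4% and 21.1% of all tested genes. KLU (AT1G13710), a cytochrome P450 that stimulates organ growth from outside the growing cells, had 35.98, 32.9 and 36.2 CPM in col-0, 17.2, 17.7 and 17.9 CPM in csld5, and 26.4, 28.0 and 28.5 CPM in complemented libraries. The genotypes did not overlap, and KLU changed in csld5 by -0.99 ± 0.07 on the log2 scale (-1.25 after the correction; adjusted p = 3.6e-07, edgeR). KLU was higher by 0.65 ± 0.07 in complemented against csld5, and was the only one of the 33 relatives and partners called in complemented against col-0 (-0.34 ± 0.06, adjusted p = 0.015, edgeR). That call ended without col-0 replicate 1 (-0.32) or 3 (-0.31) and without complemented replicate 1 (-0.31) or 2 (-0.35). JAG, a zinc finger gene that promotes the growth of floral organs, went from 5.88, 6.02 and 6.20 CPM in col-0 to 5.09, 4.47 and 3.78 CPM in csld5 and 6.36, 9.09 and 6.24 CPM in complemented libraries. Its fall of 0.44 ± 0.17 (-0.44; -0.45 after the correction) was called only without csld5 replicate 1 or complemented replicate 2 or 3 among the libraries left out (-0.54 to -0.33 over all that were left out), and its rise in complemented against csld5 was 0.70 ± 0.17. NUB, the relative of JAG that marks the adaxial side of organs, had 1.02, 1.38 and 1.29 CPM in col-0, 0.3898, 0.271 and 0.378 CPM in csld5, and 0.967, 1.04 and 0.901 CPM in complemented libraries, with log2 fold changes of -1.82 ± 0.31 in csld5 and 1.48 ± 0.32 in complemented against csld5. These levels rest on 10 to 62 reads per library. AHP6, a cytokinin inhibitor switched on in young primordia, was called in complemented against csld5 (1.26 ± 0.35) at 12 to 39 reads per library, but not after the correction (0.93). LFY (-0.41 ± 0.18), ARGOS, BOP1, BOP2 and the cyclin gene CYCD3;1 (-0.03 ± 0.07) were not called in csld5, though LFY (-0.77) and BOP2 (-0.42) were after the correction. ARGOS was not called in complemented against csld5 (-0.51 ± 0.24), but after the correction it was called lower (-0.86).

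**Figure D4:**
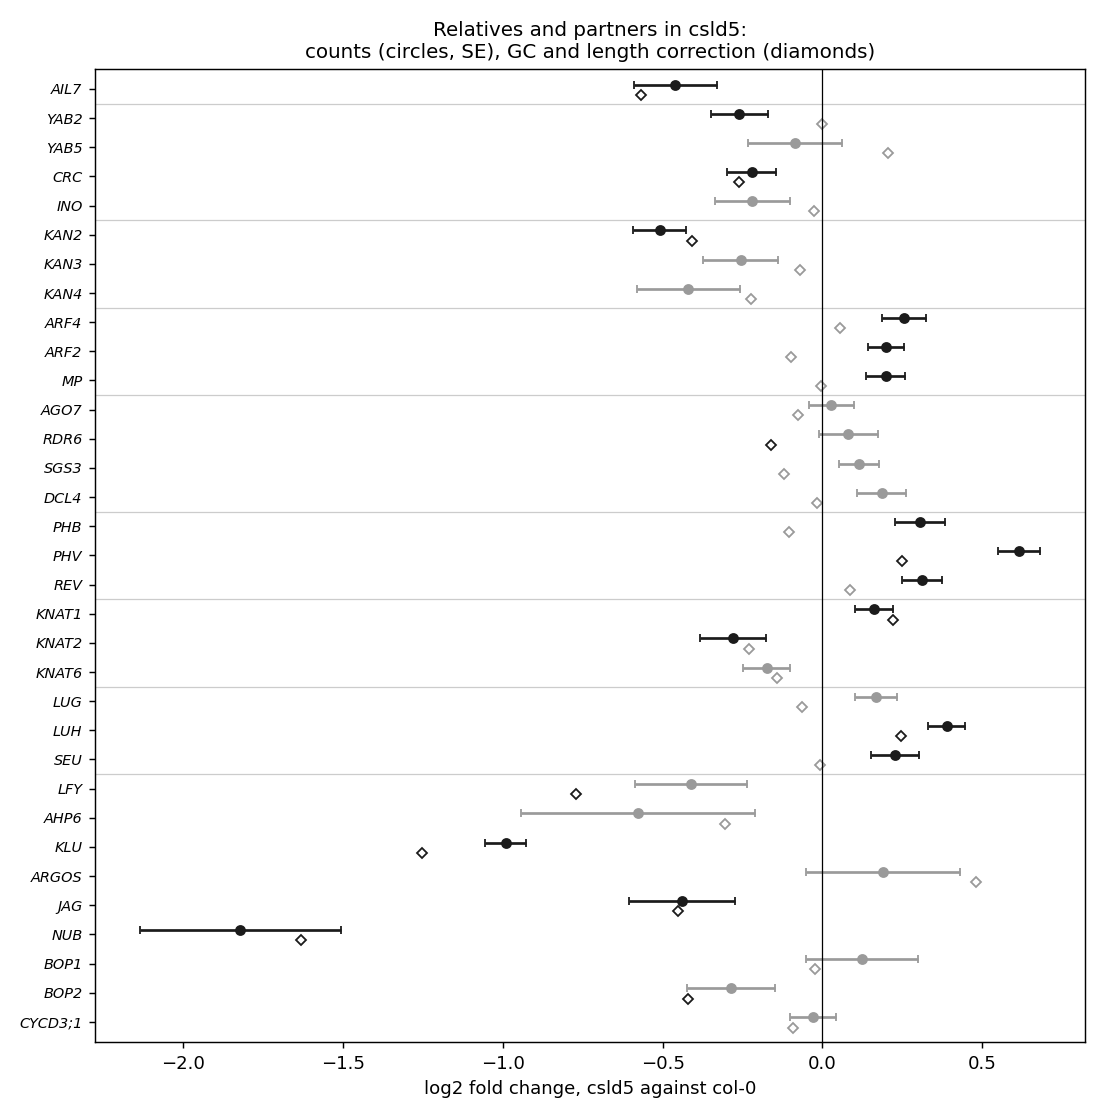
Log2 fold change in csld5 against col-0 (horizontal axis) of 33 relatives and partners of the primordium genes, 3 libraries against 3, from counts (circles, bars are SE) and after removal of the GC content and length trend (diamonds). Dark symbols passed an adjusted p of 0.05, grey lines separate the lists, and KLU (-0.99) and NUB (-1.82) lie farthest to the left.

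Several markers of flower parts and other tissues were called in csld5, where 20.4% of all tested genes were called lower and 21.1% higher. In csld5, 2 of 5 young flower markers and 2 of 3 carpel and ovule markers were called lower. The carpel and ovule markers STK, SHP1 and SHP2 together lay at 64.8 to 65.5 CPM in col-0, 48.2 to 56.2 CPM in csld5 and 66.1 to 68.3 CPM in complemented libraries. The young flower markers lay at 1084 to 1172, 893 to 1164 and 1132 to 1160 CPM, so the genotypes overlapped, and only AP1 and PI were called. Tapetum markers were called lower in 2 of 5 cases (127 to 168, 94.3 to 155 and 161 to 204 CPM together). The csld5 means of A9, DYT1 and MYB80 were 62.4%, 46.2% and 77.7% of col-0, while those of AMS and MS1 were 116% and 109%. All 3 late pollen markers rose (162 to 260, 305 to 548 and 241 to 289 CPM together), as did 2 of 3 vascular markers (82.3 to 86.1, 107 to 126 and 78.7 to 83.7 CPM). Of 5 meristem markers, of which 4 could be tested, 2 rose and 1 fell (111 to 118, 122 to 128 and 105 to 114 CPM), 0 of 3 epidermis markers were called (950 to 997, 911 to 996 and 842 to 922 CPM), and neither were the 2 green leaf markers. With the GC content and length trend removed, 0 of the 5 young flower, 1 of the 3 carpel and ovule and 0 of the 5 tapetum markers were called lower, while the 3 late pollen and 2 vascular markers stayed called higher. The epidermis marker PDF1 (-0.25) and the green leaf marker LHCB1.1 (-0.22) were then called lower, and STM (0.10) was no longer called. CLV3 was the one marker without a read in any csld5 library, but it had only 0 to 4 reads in each other library. Every listed gene has a read in col-0 replicate 1, so zeros at such low counts cannot be read as a loss in csld5. The part of these shifts in the values of ANT, FIL, YAB3, AS1 and KLU was not tested.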

How the data were processed

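Total RNA of 9 libraries was sequenced, 3 per genotype, with group and replicate read off each title. Raw counts of reads and length-scaled TPM values were deposited by the authors for the same 25760 genes. Trimmomatic 0.39, HISAT2 2.2.1, featureCounts 2.0.6 and TAIR10 are named per the submitters' processing notes; no source used here states the settings, annotation, strand or TPM tool. Every listed gene has a read in col-0 replicate 1. Of counts from 1 to 20, 72.4% to 75.7% per library were even; errors rest on the spread between libraries.

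edgeR 4.0.16 (R 4.3.3) tested the 22671 genes kept by its default filter in 1 fit of all 9 libraries, with TMM factors, genotype as the only term and Benjamini-Hochberg adjustment. The SE is the log2 fold change divided by the square root of F. Missing TPM cells were set to 0. Alternatives were DESeq2 1.42.0, limma 3.58.1 on log2(TPM + 1) and log2(TPM + 0.1), other scalings and filters, a replicate block, fits of 2 genotypes, each library left out, and a smooth curve (mgcv 1.9.3) on exon GC percent and length used as an offset for 22580 genes. The tests were also run on simulated counts, which held no trend with GC content or length. That run does not check calls made under such a trend. Positions, exon models and promoters came from RefSeq TAIR10.1, whose nuclear chromosomes were used. The members and lists were chosen with earlier results of these data known. Genes named outside the members include the called ones with the 3 smallest p per list and comparison, all relatives of the members, and the 2 genes closest to each member. Other genes of the lists, called or not, tissue markers and genes that overlap a member were also named. Same-numbered libraries of different genotypes showed no clear shared deviation, and no label says whether they belong together. The upstream window of 1 member is not reported here.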

Additional observations from a re-analysis of the deposited data

How the results depend on the processing

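The calls of ANT, FIL and YAB3 in both comparisons with csld5, and of AS1 in csld5 against col-0, held under every alternative run, and 0 members were called in complemented against col-0 under any. Values that turned their sign belong to small differences, except for ETT in csld5 against col-0 and the ratio of KAN1 to ETT. ETT stood at -0.0140 with the GC and length correction and at -0.0136 with the replicate block added. With library totals AIL6 in csld5 was -0.0132, KAN1 -0.0460 (0.0167 in complemented against csld5) and YAB3 in complemented against col-0 0.00994. AIL6 in csld5 was -0.00350 with limma on TPM and a pseudocount of 1, with or without the filter, and -0.00454 with 0.1. With the GC and length correction, AIL5 in complemented against csld5 was 0.00160 (0.00470 with the replicate block) and AS2 in csld5 0.0522 (0.0545). The log2 ratio of KAN1 to ETT in csld5 against col-0 turned from -0.216 to 0.107 with that correction. Leaving out 1 library gave, in csld5 against col-0, -0.00386 to 0.139 for AIL6, -0.155 to 0.0177 for AIL5, -0.0136 to 0.115 for KAN1 and -0.118 to 0.0302 for AS2, and in complemented against col-0 -0.202 to 0.00967 for AIL6, -0.0645 to 0.0174 for FIL, -0.0411 to 0.0291 for YAB3, -0.111 to 0.0314 for KAN1 and -0.0578 to 0.00865 for ETT.

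Members called higher in csld5 were 0 with library totals, with the GC and length correction and with that correction and the replicate block, against 1. In complemented against csld5 members called lower were 0 with the correction, with and without the block, against 1, and members called higher ranged from 3 to 5 when libraries were left out. Of the relatives and partners, 9 were called higher in csld5, against 4 with library totals and 3 with the correction, with and without the block (5 to 12 with libraries left out), and 8 lower, against 13 with library totals (4 to 8). In complemented against csld5, 8 were higher, against 5 with the correction, with and without the block, and 12 lower, against 6 with library totals, 7 with unfiltered limma, 5 with the correction and 4 with the block added (7 to 13). In complemented against col-0 the 1 called lower ranged from 0 to 1. Of all genes, 9273 were called in complemented against csld5, against 6017 with the correction and 5877 with the block added, and 346 in complemented against col-0, against 663 with DESeq2, 211 and 217 with limma (pseudocounts 1 and 0.1), 137 unfiltered, and 139 to 461 with libraries left out. The replicate block alone changed no member's call. Same-numbered libraries correlated in their deviations at -0.11 to 0.20, and 1 of 9 such pairs passed 0.1. No clear pairing was seen, and no label says whether equal numbers pair libraries. Library totals moved the median of all genes in csld5 against col-0 from -0.02 to -0.10. The cause of each of these shifts was not tested. AIL5, AIL6, KAN1 and AS2 have the fewest reads of the 9 genes, which limits what can be seen there.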
